A study of Homo sapiens with 4 samples.

Results

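The genes of fibroblast growth factor (FGF) signalling were followed in CD31+ cells collected at day 8 of hematopoietic differentiation. The cells came from H1, a long-established line of human embryonic stem cells. The members were chosen by symbol: every FGF ligand gene, the receptors FGFR1 to FGFR4, and a named set of feedback inhibitors and transcriptional targets. This gave 40 genes of the 58365 rows in the table. Of the 40, 18 encode secreted ligands, 4 encode intracellular FGF homologous factors, 4 encode receptors, and 14 are feedback genes and targets.

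Cells of the HAND1_OE group overexpressed the transcription factor HAND1 and were compared with Control cells without the overexpression, with 2 libraries in each group. The study asked whether sustained HAND1 affects mesenchymal genes and the formation of blood cells. Per the labels, H1 cells in both groups were first given activin A and BMP4, and then 40 ng/ml VEGF and 50 ng/ml bFGF (the FGF2 protein) for 2 days, so an FGF ligand was supplied to Control and HAND1_OE cells alike. These labelled steps end before day 8, while the general methods of the study describe daily renewal of the VEGF and bFGF medium over a longer period, and neither says whether bFGF was present when these cells were collected. The labels name neither the vector nor an inducer of HAND1, and do not say whether the 2 libraries of a group came from separate cultures, so the p-values measure only the spread between these libraries. The unit of the values is not stated, and they were read as FPKM, that is, fragments scaled to transcript length and to library depth. They summed to between 536299 and 606623 in a library. HAND1 itself measured 12.1 and 14.3 FPKM in Control against 520 and 517 FPKM in HAND1_OE (log2 fold change 5.20, SE 0.15, adjusted p = 0.00145), which matches the labels.

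FGFs are secreted signals that bind heparan sulfate on the cell surface and activate receptor tyrosine kinases, which switch on the RAS and ERK kinase cascade. Cells limit this signal through genes that the cascade itself induces, among them the Sprouty and SPRED proteins, which act on the way from the receptor to RAS and RAF, and the DUSP phosphatases, which remove phosphate from ERK. In the embryo FGFs take part in forming mesoderm and in growing endothelium, and FGF2 is a usual supplement when endothelial and blood cells are derived from stem cells.

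Of the 40 members, 25 reached 1 FPKM in at least 2 libraries and were tested, and 4 of these passed an adjusted p of 0.05. FGF10 and DUSP4 were higher in HAND1_OE, and SPRY1 and FGF17 were lower. Over all 14622 genes tested, 608 (4.16%) passed, with 299 (2.04%) higher and 309 (2.11%) lower. Of the 25 members, 2 passed in each direction. At an unadjusted p under 0.05 there were 7 of 25 members, against 2551 of all genes. The median log2 fold change was 0.12 over the 25 members and -0.078 over all genes tested. The log2 fold change was positive for 15 members and negative for 10, against 5663 positive and 8959 negative over all genes tested. The groups did not overlap for 17 of 25 members, against 46.3% of all genes tested. A member that passed the filter only through the group where it is high had to differ, and this holds for FGF17, so these counts describe the tested genes and not all 40.

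Other ways of processing the table moved the members' count between 0 and 5. FGF10, DUSP4 and SPRY1 passed with a pseudocount of 0.1 (background 3.68%), with a filter of 1 FPKM in every library (3.92%) and with quantile normalization (4.25%), and all 4 passed with median-ratio scaling (3.95%) and without the trend of limma (4.19%). FGF11 joined the 4 when the replicate number entered as a block (8.95%). With a library left out, SPRY1 alone passed without Control replicate 1 (1.95%) or Control replicate 2 (1.85%), FGF17 was lost without HAND1_OE replicate 1 (3.34%), and DUSP4 and SPRY1 passed without HAND1_OE replicate 2 (3.93%). When all genes above 0 were tested, 0 of 37 members passed, as did 0 of all 29860 genes, and 8 members were at an unadjusted p under 0.05, against 12.8% of all genes.

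The other 15 members, 14 secreted ligands and FGF14, did not pass the filter, and none of them exceeded 0.918 FPKM in any library. FGF4, FGF5 and FGF21 were listed at 0 in all libraries. Between 24 and 25 members reached 1 FPKM in a library.

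The labelled cell type was checked against marker genes, since RNA from other cells would bear on every value below. The 8 endothelial markers were present in all libraries and summed to 1271 to 1451 FPKM in Control and 1221 to 1330 FPKM in HAND1_OE, and 1 of 8, CLDN5, passed the test as lower. PECAM1, the gene of CD31, was at 95.5 and 141 FPKM in Control against 92.0 and 160 FPKM in HAND1_OE. The 8 hematopoietic markers summed to 226 and 278 FPKM in Control and to 27.3 and 18.4 FPKM in HAND1_OE, and all 7 of those tested were lower. The 8 mesenchymal and stromal markers summed to 349 to 431 FPKM in Control and 501 to 561 FPKM in HAND1_OE. Of 7 tested, 3 were higher (PDGFRB, LUM and POSTN), none was lower and 6 were at an unadjusted p under 0.05. POSTN, at 0.825 and 0.922 FPKM in Control, passed the filter only through HAND1_OE, where it is high, so it had to differ. The list did not move as a whole: 5 of 7 log2 fold changes were positive and 2 were negative, and COL1A2 was at 154 and 141 FPKM in Control against 68.6 and 101 FPKM in HAND1_OE (log2 difference -0.82, adjusted p = 0.123). Of the lists for other cells, none of 4 cardiac, 3 pluripotent, 5 epithelial and 4 endoderm markers tested passed limma's adjusted threshold. In that order, 2, 1, 0 and 0 of them were at an unadjusted p under 0.05. For all genes tested this count was 2551 of 14622, which also stands beside the 6 of 7 mesenchymal markers. By the adjusted threshold, 2.04% of all genes tested were higher and 2.11% were lower. The cardiac list summed to 29.9 to 47.1 FPKM in Control and 27.4 to 28.5 FPKM in HAND1_OE, the pluripotent list to 73.1 to 86.6 FPKM and 51.2 to 66.6 FPKM, and the epithelial list to 230 to 242 FPKM and 266 to 327 FPKM. The endoderm list was higher in replicate 2 of either group, at 153 and 307 FPKM in Control against 155 and 604 FPKM in HAND1_OE. No marker of any list was at 0 in all 4 libraries. The blood and mesenchymal markers differed between the same groups as the FGF genes described here, and their part in those results was not tested. In bulk RNA, fewer cells of a type and less RNA per cell cannot be told apart.

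HAND1 belongs to the basic helix-loop-helix factors, a class that recognises the E-box, whose letters are CANNTG. The sequence before the annotated start of SPRY1, the member with the largest change of the 25, is shown so that the letters of this class can be seen beside its values. The run holds the 250 bases upstream of the start in GRCh38.p14 (RefSeq), 5′ to 3′ on the strand of the gene, with E-boxes in capitals. The window is chr4:123396545-123396794 on the plus strand, and it ends at the base before the SPRY1 gene of GENCODE release 29.
SPRY1: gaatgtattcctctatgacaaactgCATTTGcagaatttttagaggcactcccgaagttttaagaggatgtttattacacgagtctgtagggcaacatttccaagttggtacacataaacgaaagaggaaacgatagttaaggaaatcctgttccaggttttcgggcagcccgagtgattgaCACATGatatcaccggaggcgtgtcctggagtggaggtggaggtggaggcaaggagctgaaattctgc
It had 2 matches, which begin 225 and 68 bases upstream of the start. A further annotated start of SPRY1 had no match in its window. CANNTG reads the same on either strand, and 61.8% of all 34943 RefSeq windows of this length held at least 1 match. Among windows of the members, 31 of 55 (56.4%) held it, from 28 of 40 members that had a window. The narrower E-box CATCTG, sought on either strand, had 0 matches in both windows of SPRY1. It was held by 7 of 55 windows of the members (12.7%), against 12.2% of all windows. A match is a description of letters and not of binding, which was not measured.

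FGF10 had the highest mean level of the secreted ligands in both groups, although FGF2 exceeded it in Control replicate 2 (7.01 against 6.48 FPKM). FGF10 belongs to the FGF7 subfamily, which mesenchyme secretes and which acts mainly on the epithelial form of FGFR2. FGF10 (ENSG00000070193.4, chr5:44303544-44389706, GRCh38) was at 6.11 and 6.48 FPKM in Control against 13.0 and 15.8 FPKM in HAND1_OE. Each HAND1_OE library was above each Control library. The means were 6.30 ± 0.26 and 14.4 ± 1.92 FPKM (SD, n = 2 each), a 2.29-fold difference, and the test gave a log2 fold change of 1.07 (SE 0.17, adjusted p = 0.0341). The call rested on 3 of the 4 libraries: with Control replicate 1 left out the adjusted p was 0.127, with Control replicate 2 left out 0.114, and with HAND1_OE replicate 2 left out 0.0874, within a range of 0.0207 to 0.170 over 11 alternatives, with the log2 fold change between 0.95 and 1.20. The other members of its subfamily were near 0. FGF7, a mesenchymal growth factor for epithelium whose partial pseudogene copies make its value uncertain, was at 0.455 and 0.464 FPKM in Control against 0 and 0.137 FPKM in HAND1_OE. FGF3 and FGF22 did not exceed 0.0747 FPKM.

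FGF17 was the other ligand that passed, in the opposite direction. It belongs to the FGF8 subfamily, which signals during patterning of the early embryo and midbrain. FGF17 (ENSG00000158815.10, chr8:22042398-22048809) was at 2.56 and 2.34 FPKM in Control against 0.459 and 0.60 FPKM in HAND1_OE. The Control libraries lay well above the HAND1_OE libraries, with means of 2.45 ± 0.16 and 0.53 ± 0.10 FPKM (SD, n = 2 each), and the Control mean was 4.62 times the HAND1_OE mean. On the log2(FPKM + 1) scale, which understates changes of low genes, the difference was -1.17 (SE 0.20, adjusted p = 0.0419). FGF17 passed the filter only through Control, where it is high, so it had to differ and its p-value is limited by that. The FGF17 call was the least stable of the 4. Leaving out any of the 4 libraries gave an adjusted p of 0.142 (Control replicate 1), 0.128 (Control replicate 2), 0.104 (HAND1_OE replicate 1) or 0.0664 (HAND1_OE replicate 2), in a range of 0.0265 to 0.184 over the 10 alternatives that could test it. FGF8 and FGF18, its relatives, did not exceed 0.232 FPKM. The ratio of FGF17 to FGF10 was 0.418 and 0.361 in the Control libraries and 0.0352 and 0.0381 in the HAND1_OE libraries.

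The remaining tested ligands did not pass. FGF2, the basic FGF that binds heparin and whose protein was supplied at the labelled bFGF step, was at 3.71 and 7.01 FPKM in Control against 4.78 and 5.20 FPKM in HAND1_OE. Both HAND1_OE values lay between the Control values, and the log2 difference was -0.04 (95% interval -0.74 to 0.66, adjusted p = 0.972), with its sign turned to 0.07 by quantile normalization. NUDT6 overlaps FGF2 on the opposite strand and was at 3.27 to 6.91 FPKM. The kit in the labels is not stated to keep strand, so reads of such an overlap cannot be told apart. Other members share this limit, among them FGF7 with FAM227B (1.72 to 3.75 FPKM) and ETV4 with DHX8 (13.3 to 16.2 FPKM). FGFR1 overlaps AC087623.1 (4.50 to 7.27 FPKM) in the same way. FGF23, a hormone of bone that lowers phosphate, was at 2.77 and 2.64 FPKM in Control against 3.83 and 2.86 FPKM in HAND1_OE (log2 difference 0.22, 95% interval -0.28 to 0.72, adjusted p = 0.680). FGF19, an intestinal hormone that acts on bile acid synthesis, was just under the filter at 0.542 and 0.512 FPKM in Control against 0.918 and 0.748 FPKM in HAND1_OE, and was not tested. FGF6 was listed at 0 in the Control libraries and reached 0.0823 and 0.388 FPKM in HAND1_OE. FGF1, FGF9, FGF16 and FGF20 did not exceed 0.364 FPKM. Summed over all 18 secreted ligands, the level was 16.96 and 20.2 FPKM in Control against 23.6 and 26.6 FPKM in HAND1_OE. Within these sums the ratio of FGF10 to FGF2 was 1.65 and 0.925 in Control and 2.73 and 3.03 in HAND1_OE.

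**Figure D1:**
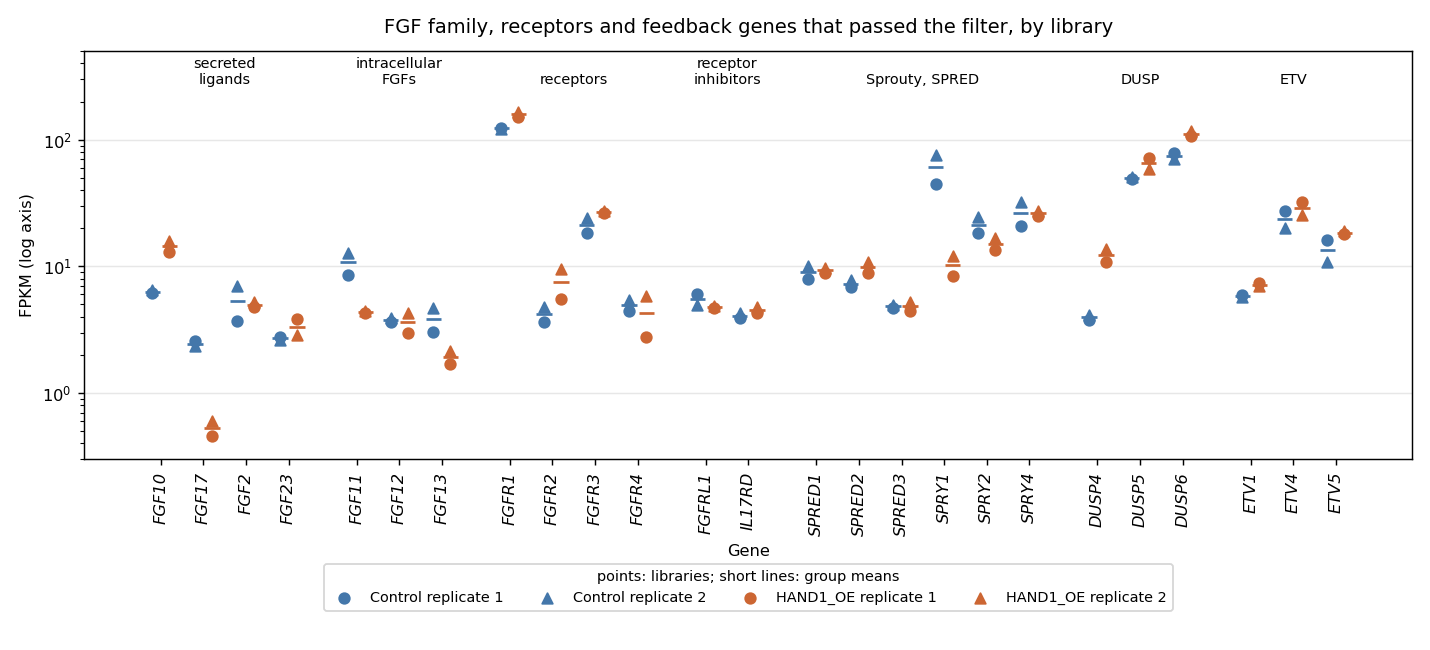
Level of each tested FGF member in every library, in FPKM on a log axis, grouped by role, with Control in blue, HAND1_OE in orange, circles for replicate 1, triangles for replicate 2 and short lines for group means. FGFR1 and DUSP6 sit highest, and the HAND1_OE libraries of SPRY1 (8.44 and 12.0 FPKM) lie far below its Control libraries (44.9 and 76.3 FPKM).

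The intracellular FGF homologous factors share the FGF fold but are not secreted, and are known for binding voltage-gated sodium channels. None of the 3 tested passed limma's adjusted threshold. At an unadjusted p under 0.05 there were 2 of 3, against 2551 of all 14622 genes tested. FGF11 was at 8.62 and 12.8 FPKM in Control against 4.30 and 4.45 FPKM in HAND1_OE (log2 difference -1.10, SE 0.22, adjusted p = 0.0625, 95% interval -1.65 to -0.55). Its groups lay apart, and with the replicate number as a block its adjusted p was 0.0384, in a range of 0.0384 to 0.251 over 11 alternatives. FGF13 was at 3.04 and 4.65 FPKM in Control against 1.69 and 2.14 FPKM in HAND1_OE (log2 difference -0.72, 95% interval -1.31 to -0.12, adjusted p = 0.206). FGF12 was at 3.65 and 3.88 FPKM in Control against 2.98 and 4.29 FPKM in HAND1_OE, and its groups overlapped (log2 difference -0.06, 95% interval -0.58 to 0.47, adjusted p = 0.940). FGF14 did not exceed 0.198 FPKM. The 4 genes summed to 15.3 and 21.6 FPKM in Control and to 8.97 and 10.9 FPKM in HAND1_OE.

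FGFR1 carried most of the receptor RNA. It was at 124 and 122 FPKM in Control against 150 and 166 FPKM in HAND1_OE, with means of 123 ± 1.56 and 158 ± 10.9 FPKM (SD, n = 2 each). Its groups lay apart, yet the log2 difference of 0.35 did not pass (95% interval -0.01 to 0.71, adjusted p = 0.296). FGFR1 made up 82.4% and 78.1% of the summed FPKM of the 4 receptors in Control and 81.2% and 79.5% in HAND1_OE, that is, 80.3% ± 3.07 and 80.3% ± 1.19 (SD, n = 2 each). FGFR3, which is known for its role in bone growth, came next at 18.5 and 24.1 FPKM in Control against 26.6 and 27.4 FPKM in HAND1_OE (log2 difference 0.34, 95% interval -0.10 to 0.78, adjusted p = 0.414). FGFR2, whose epithelial splice form is the main receptor for FGF10, was at 3.61 and 4.82 FPKM in Control against 5.53 and 9.51 FPKM in HAND1_OE (log2 difference 0.68, 95% interval -0.02 to 1.37, adjusted p = 0.299), and the table does not separate its splice forms. FGFR4 was at 4.46 and 5.42 FPKM in Control against 2.75 and 5.84 FPKM in HAND1_OE, an overlap of the groups (log2 difference -0.23, 95% interval -1.01 to 0.56, adjusted p = 0.804). No receptor passed limma's adjusted threshold, and 0 of 4 were at an unadjusted p under 0.05. In order of level, FGFR1 exceeded FGFR3 and FGFR3 exceeded both others in every library, while FGFR2 and FGFR4 changed places between the groups and did not differ beyond the spread of their libraries. The 4 receptors summed to 151 and 157 FPKM in Control and to 185 and 209 FPKM in HAND1_OE.

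SPRY1 had the largest change of the 25 members tested. It is a Sprouty protein, an inhibitor that receptor tyrosine kinase signalling induces and that in turn restrains signalling to ERK. SPRY1 (ENSG00000164056.10, chr4:123396795-123403760) was at 44.9 and 76.3 FPKM in Control against 8.44 and 12.0 FPKM in HAND1_OE. Every Control library was far above every HAND1_OE library, with means of 60.6 ± 22.2 and 10.2 ± 2.54 FPKM (SD, n = 2 each), and the Control mean was 5.92 times the HAND1_OE mean. The log2 fold change was -2.42 (SE 0.30, 95% interval -3.17 to -1.68, adjusted p = 0.0179), and the call held with each of the 4 libraries left out (adjusted p from 0.00423 to 0.0262). It was lost in 1 of 11 alternatives, the test of all genes above 0, in which no gene of the table passed (adjusted p = 0.185, the top of a range from 0.00423).

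The other Sprouty and SPRED genes did not pass. SPRY2 was at 18.3 and 24.4 FPKM in Control against 13.5 and 16.6 FPKM in HAND1_OE (log2 difference -0.47, 95% interval -0.97 to 0.03, adjusted p = 0.323). SPRY4 was at 20.8 and 32.4 FPKM in Control against 25.2 and 27.5 FPKM in HAND1_OE, between the Control values (log2 difference 0.02, 95% interval -0.56 to 0.59, adjusted p = 0.985). The ratio of SPRY1 to SPRY4 was 2.16 and 2.36 in the Control libraries and 0.335 and 0.438 in the HAND1_OE libraries, so SPRY4 was the lower of the pair in Control and the higher in HAND1_OE. The ratio of SPRY1 to SPRY2 likewise went from 2.45 and 3.13 to 0.623 and 0.723. The SPRED proteins bind neurofibromin and so hold back RAS. SPRED1 was at 7.98 and 10.1 FPKM in Control against 8.78 and 9.76 FPKM in HAND1_OE (log2 difference 0.04, adjusted p = 0.955). SPRED2 was at 6.83 and 7.77 FPKM in Control against 8.93 and 10.9 FPKM in HAND1_OE (log2 difference 0.39, 95% interval -0.05 to 0.83, adjusted p = 0.352), and its groups lay apart. SPRED3 was at 4.73 and 4.94 FPKM in Control against 4.40 and 5.26 FPKM in HAND1_OE (log2 difference -0.00, 95% interval -0.44 to 0.44, adjusted p = 0.994). The 6 genes summed to 104 and 156 FPKM in Control and to 69.3 and 82.0 FPKM in HAND1_OE.

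At the level of the receptor itself, FGFRL1, a decoy receptor without a kinase domain, was at 6.06 and 4.99 FPKM in Control against 4.65 and 4.89 FPKM in HAND1_OE (log2 difference -0.17, 95% interval -0.62 to 0.27, adjusted p = 0.723). IL17RD, a transmembrane inhibitor also known as Sef, was at 3.89 and 4.28 FPKM in Control against 4.25 and 4.78 FPKM in HAND1_OE (log2 difference 0.12, 95% interval -0.32 to 0.55, adjusted p = 0.818). The groups lay apart for FGFRL1 and overlapped for IL17RD, and neither gene passed.

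DUSP4 was the feedback gene that rose. It is a nuclear phosphatase that inactivates ERK and related MAP kinases. DUSP4 (ENSG00000120875.8, chr8:29333064-29350668) was at 3.79 and 4.12 FPKM in Control against 10.8 and 13.8 FPKM in HAND1_OE. The groups lay well apart, with means of 3.95 ± 0.23 and 12.3 ± 2.10 FPKM (SD, n = 2 each), a 3.10-fold difference, and the log2 fold change was 1.41 (SE 0.19, 95% interval 0.95 to 1.88, adjusted p = 0.0219). The call was lost without Control replicate 1 (adjusted p = 0.0723) and without Control replicate 2 (adjusted p = 0.0648), in a range of 0.0156 to 0.167 over 11 alternatives, and held with either HAND1_OE library left out. DUSP6, a cytoplasmic phosphatase specific for ERK that FGF signalling readily induces, had the highest mean of the feedback genes in either group, at 79.1 and 70.1 FPKM in Control against 106 and 116 FPKM in HAND1_OE. Its groups lay apart, but it did not pass (log2 difference 0.57, SE 0.15, 95% interval 0.20 to 0.94, adjusted p = 0.122). DUSP5, a nuclear phosphatase for ERK, was at 49.1 and 50.9 FPKM in Control against 71.5 and 58.6 FPKM in HAND1_OE (log2 difference 0.37, 95% interval -0.03 to 0.77, adjusted p = 0.328). Even after its rise DUSP4 stayed well below DUSP6, with a ratio of the 2 of 0.0480 and 0.0587 in Control and 0.102 and 0.119 in HAND1_OE. At an unadjusted p under 0.05 there were 2 of the 3 phosphatases (DUSP4 and DUSP6), against 2551 of all 14622 genes tested. The 3 phosphatases summed to 132 and 125 FPKM in Control and to 188.4 FPKM in each HAND1_OE library.

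The PEA3 group of ETS factors is a usual readout of FGF signalling. ETV4 was at 27.4 and 20.2 FPKM in Control against 32.1 and 25.3 FPKM in HAND1_OE, with overlapping groups (log2 difference 0.27, 95% interval -0.26 to 0.79, adjusted p = 0.617). ETV5 was at 16.1 and 10.8 FPKM in Control against 17.9 and 18.9 FPKM in HAND1_OE (log2 difference 0.45, 95% interval -0.09 to 0.99, adjusted p = 0.384). ETV1 was at 5.94 and 5.69 FPKM in Control against 7.38 and 6.99 FPKM in HAND1_OE (log2 difference 0.26, 95% interval -0.13 to 0.66, adjusted p = 0.495). All 3 had a higher mean in HAND1_OE and none passed limma's adjusted threshold, with 0 of 3 at an unadjusted p under 0.05. Over all 14 feedback genes and targets, 1 was higher (DUSP4), 1 was lower (SPRY1) and 12 did not pass. Of all genes tested, 2.04% were higher and 2.11% were lower. The median log2 fold change was 0.19 over the 14, against -0.078 over all genes tested.

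**Figure D2:**
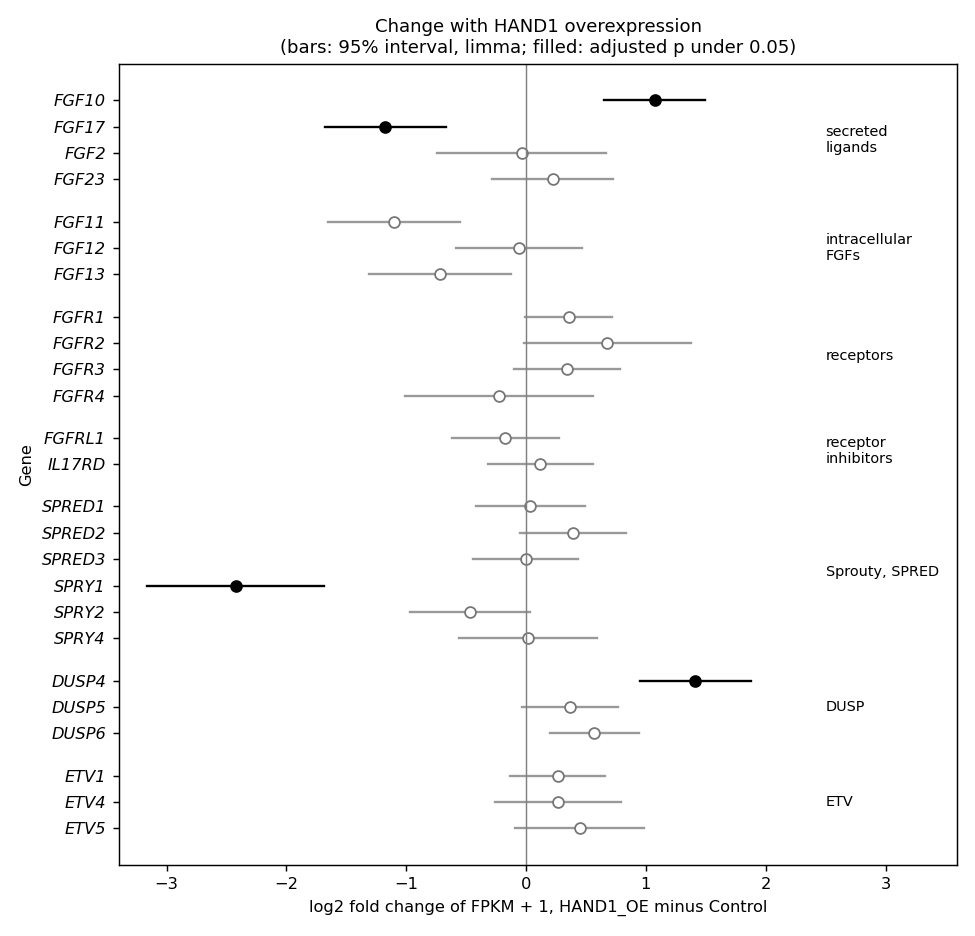
Log2 fold change of FPKM + 1 (HAND1_OE minus Control) of the 25 tested members, with bars for the 95% interval; filled points passed an adjusted p of 0.05. SPRY1 (-2.42) and FGF17 (-1.17) lie to the left and DUSP4 (1.41) and FGF10 (1.07) to the right, while the intervals of all 4 receptors include 0.

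**Figure D3:**
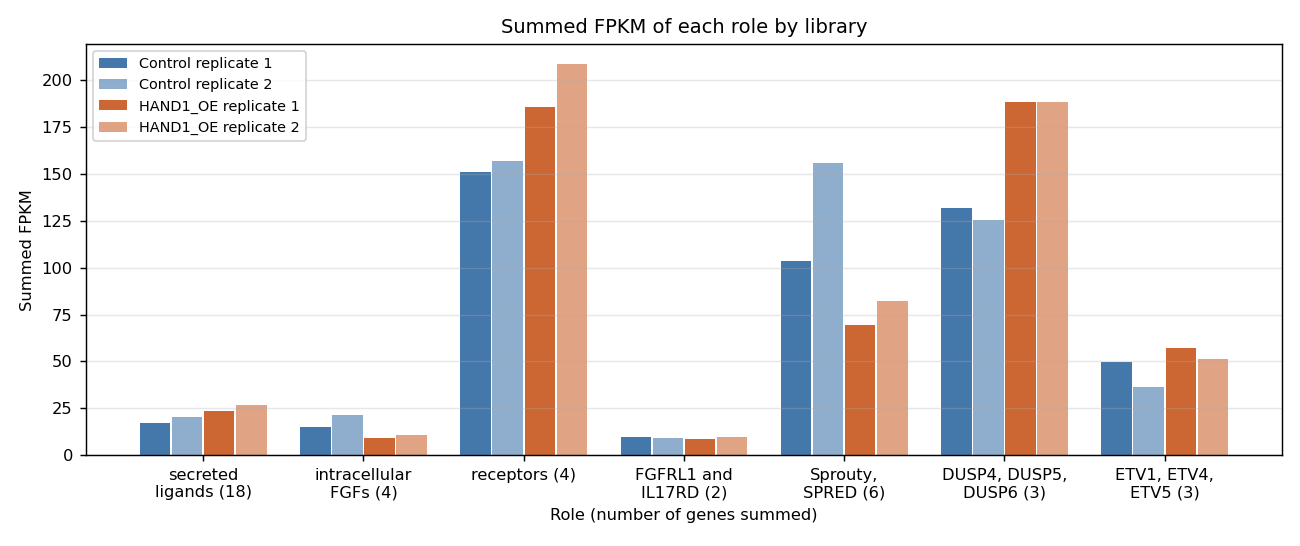
Summed FPKM (vertical axis from 0) of the members of each role, with 1 bar for each library, blue for Control and orange for HAND1_OE. The summed Sprouty and SPRED level is 104 and 156 FPKM in Control against 69.3 and 82.0 FPKM in HAND1_OE, and the summed phosphatase level is 132 and 125 FPKM against 188.4 FPKM in each HAND1_OE library.

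Lists of other genes of the pathway were read from the same fit. Of 19 listed co-receptors and ligand carriers, 14 were tested, 1 was higher and 1 was lower, with a median log2 fold change of -0.22. Of all genes tested, 2.04% were higher and 2.11% were lower. At an unadjusted p under 0.05 there were 7 of 14, against 2551 of all 14622 genes tested. FGFBP3, a secreted protein that binds FGFs and releases them from the matrix, was at 9.78 and 14.6 FPKM in Control against 1.89 and 1.66 FPKM in HAND1_OE (log2 fold change -2.22, SE 0.23, adjusted p = 0.0112), and the Control mean was 6.85 times the HAND1_OE mean. SDC3, a syndecan that carries heparan sulfate at the cell surface, was at 19.8 and 20.7 FPKM in Control against 44.6 and 47.2 FPKM in HAND1_OE (log2 fold change 1.14, SE 0.14, adjusted p = 0.0179). Without a Control library the adjusted p of SDC3 reached 0.0817, in a range of 0.0110 to 0.153 over 11 alternatives.

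Of 20 listed genes that build or edit heparan sulfate, 18 were tested, 1 was higher and none was lower, with a median of 0.03. At an unadjusted p under 0.05 there were 5 of 18, against 2551 of all 14622 genes tested. Among the 5, HS6ST2 and XYLT1 passed the filter only through Control, where they are high, so they had to differ. The gene called higher was SULF2, an extracellular sulfatase that removes sulfate groups from heparan sulfate and so changes which growth factors it holds. SULF2 was at 20.9 and 31.4 FPKM in Control against 184 and 211 FPKM in HAND1_OE. The HAND1_OE mean was 7.56 times the Control mean (log2 fold change 2.90, SE 0.22, adjusted p = 0.00703). SULF2 and FGFBP3 each kept their call in 10 of 11 alternatives and with every library left out in turn.

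All 27 listed genes of signalling downstream of the receptor were tested, and 0 passed in limma, against 4.16% of all genes tested. Besides the relay to ERK, the list holds PIK3CA, PIK3R1 and AKT1 of the PI3K branch. It also holds RASA1, NF1 and CBL, which restrain the signal. At an unadjusted p under 0.05 there were 2 of 27 (MAP2K1 and PIK3R1), against 2551 of all 14622 genes tested. The log2 fold changes of the 27 ran from -0.48 to 0.63 with a median of -0.06. Of 21 listed other ERK-responsive genes, 19 were tested, with 3 positive and 16 negative log2 fold changes and a median of -0.37. Over all genes tested, 5663 were positive and 8959 negative, with a median of -0.078. At an unadjusted p under 0.05 there were 6 of the 19, against 2551 of all 14622 genes tested. CCND1, the cyclin D1 gene, was higher at 23.4 and 22.0 FPKM in Control against 45.5 and 38.3 FPKM in HAND1_OE (log2 fold change 0.85, adjusted p = 0.0491), and did not pass with any 1 of the 4 libraries left out (adjusted p 0.0556 to 0.222, in a range of 0.0202 to 0.222 over 11 alternatives). JUNB, an immediate early gene of the AP-1 family, was lower at 233 and 223 FPKM in Control against 99.8 and 83.4 FPKM in HAND1_OE (log2 fold change -1.31, SE 0.16, adjusted p = 0.0174), and with a Control library left out its adjusted p reached 0.0618, in a range of 0.00921 to 0.153 over 11 alternatives.

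**Figure D4:**
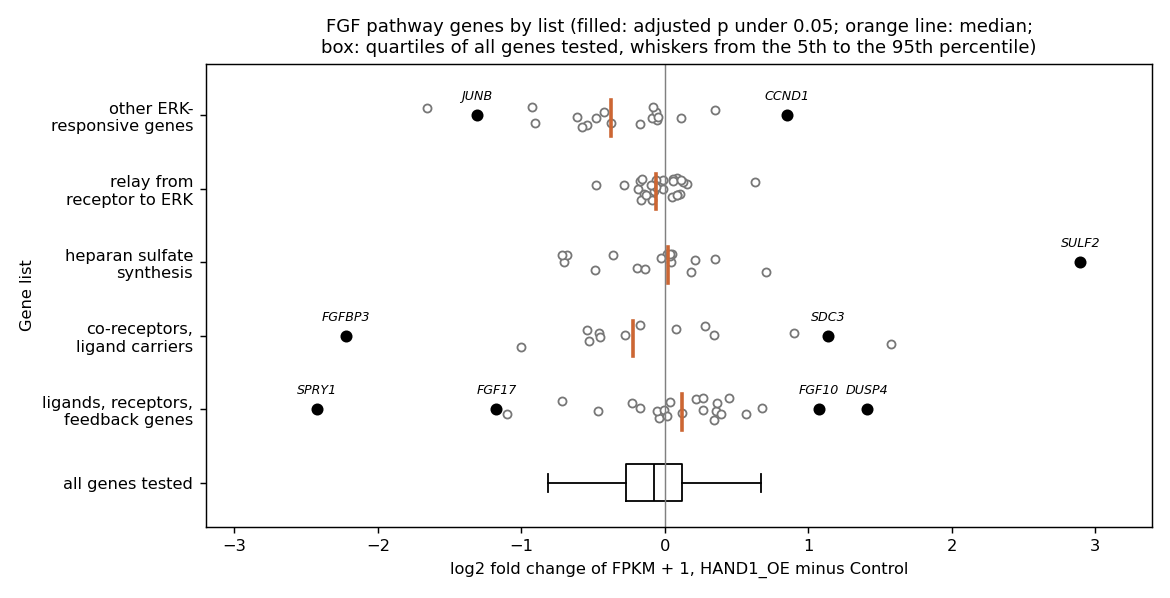
Log2 fold change of FPKM + 1 (HAND1_OE minus Control) of each tested gene in the FGF members and in 4 other lists of the pathway, with the spread of all genes tested as a box; filled points passed an adjusted p of 0.05 and vertical bars are medians. SULF2 (2.90) lies farthest to the right and SPRY1 (-2.42) and FGFBP3 (-2.22) farthest to the left. In the list labelled as the relay from receptor to ERK, which also holds genes of the PI3K branch, no gene is filled.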

How the data were processed

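RNA of CD31+ cells was sequenced from 2 Control and 2 HAND1_OE libraries, prepared with an Illumina TruSeq kit and grouped by sample title. The authors deposited 1 table of 58365 rows whose unit is not stated. The deposited values were read as FPKM, which the study plots for these cells, so the counts and depth behind a value are unknown and no counting interval can be given. The submitters' processing notes name BWA, Bowtie, RSEM and hg19 with no role, order or version, yet 55629 of 55723 rows matched by versioned ID have the coordinates of GENCODE release 29 on GRCh38, as do 33 of 33 matched members. Y copies of pseudoautosomal genes (45 rows) and 91 further rows sharing a gene ID were left out, the row with the highest mean being kept.

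Genes that reached 1 FPKM in at least 2 libraries were tested on the log2(FPKM + 1) scale with limma 3.58.1, run in R 4.3.3 with its mean-variance trend. Tests were two-sided with a threshold of 0.05 after Benjamini-Hochberg adjustment over 14622 genes, and 95% intervals came from the same fit. The code was tested on simulated data. An exact permutation test of 2 against 2 libraries cannot go below p = 0.333, so summed levels, shares and ratios carry no test. Role sums, marker lists and pathway lists were written from general knowledge, and the members and lists were chosen with earlier results of these data known. Every tested member is given with its values in each library, members under the filter by range or value, and of each pathway list up to 4 called genes. COL1A2, MAP2K1, PIK3R1, HS6ST2 and XYLT1 were named after their values were seen. The alternatives were a pseudocount of 0.1, no filter beyond a value above 0, at least 1 FPKM in every library, scaling by quantiles or by median ratios, a fit without the trend, a block for the replicate number, and leaving out each library.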

Additional observations from a re-analysis of the deposited data

How the results depend on the processing

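Over 11 alternatives, the log2 fold changes of the 25 tested members gave 242 values with the direction and side of the threshold of the reported fit, 15 weaker, 1 stronger and 16 reversed. SPRY1 passed in 10 alternatives, DUSP4 in 8, FGF10 in 7 and FGF17 in 3 of 10. When all genes above 0 were tested, no gene passed: 0 members were higher and 0 lower, against 8 of 37 members and 3810 of 29860 genes (12.8%) at an unadjusted p under 0.05, and more genes were tested there. The lower members came to 1 with a pseudocount of 0.1 and with quantile normalization, where FGF17 was lost. They also came to 1 with 1 FPKM in every library, a setting in which FGF17 was not tested. With single libraries left out, 0 to 2 members were higher, 134 to 266 of all genes were higher and 137 to 309 were lower. All genes above 0 gave 0 higher and 0 lower genes. The replicate numbers could be used as a block: it gave 597 higher and 712 lower genes (8.95%), and added FGF11 to the members that passed. The labels do not tie equal numbers to a shared batch, and the differences between replicates correlated at r = 0.383 between the groups over 14622 genes. The signs of 6 small differences turned. Quantile normalization and median-ratio scaling gave 0.069 and 0.054 for FGF2, 0.057 and 0.031 for FGF12, and 0.10 and 0.088 for SPRED3. Leaving out single libraries gave ranges of -0.42 to 0.34 for FGF2, -0.26 to 0.15 for FGF12, -0.66 to 0.21 for FGFR4, -0.29 to 0.32 for SPRY4, -0.12 to 0.19 for SPRED1 and -0.11 to 0.10 for SPRED3. Except where stated, the cause was not tested. With 2 libraries a group and no counts, small changes such as those of the receptors could not be told from the spread.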
